A study of Homo sapiens with 20 samples.

Results

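BMP4, the inhibitor-of-differentiation genes ID1, ID2 and ID3, the inhibitory SMAD genes SMAD6 and SMAD7, and the SMAD corepressor gene SKIL were followed through IGF2BP3 PAR-CLIP libraries of HCT116 cells in 5 conditions. These 7 genes were taken from the 19962 genes of the count table by identifier. BMP4 led the choice because its count was low after 4 h of tunicamycin, so its values in that condition describe the choice and carry no test. The other 6 genes were chosen as known targets or partners of BMP signalling, with earlier results of these data already known. Their p-values therefore do not belong to a choice made without the data.

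BMP4 is a secreted ligand of the TGF-beta superfamily that binds serine/threonine kinase receptors, which phosphorylate SMAD proteins that enter the nucleus with SMAD4 and switch on target genes. The ID genes are classic direct targets and encode proteins that bind basic helix-loop-helix transcription factors and keep them off DNA. SMAD6 and SMAD7 are induced by the pathway and inhibit it, and SKIL encodes SnoN, a corepressor that holds SMAD complexes inactive. IGF2BP3 is an oncofetal RNA-binding protein of the cytoplasm that associates with many mRNAs. In intestinal epithelium BMP signalling favours differentiation over stem-cell renewal.

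HCT116 is a line from a human colorectal carcinoma, and the derivative used here carried a Tet-OsTIR1 construct with puromycin resistance. PAR-CLIP places 4-thiouridine into RNA, crosslinks it to protein with long-wave ultraviolet light, and reads crosslinked uridines as T-to-C conversions. Every group, controls included, received 100 µM 4-thiouridine for 15 h and 0.15 J/cm2 of ultraviolet light. Tunicamycin (TM), which blocks N-glycosylation in the endoplasmic reticulum, was used at 5 µg/mL, for 1 h in one group and 4 h in another, and DMSO for 4 h was the control of both, so the shorter treatment had a longer vehicle control. Arsenite at 250 µM for 2 h had PBS for 2 h as its control. Titles name that compound arsenite and the treatment field names it arsenate. The treatment text states 4 h of tunicamycin, and the times of the individual samples were followed here. Each condition had 3 libraries made with an antibody to IGF2BP3 and 1 made with control IgG, 20 in all. The labels do not say that replicates came from separate cultures, so p-values measure the spread between libraries.

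Among the 15 anti-IGF2BP3 libraries PBS replicate 2 had the lowest total gene count, 130478, and TM 4 h replicate 3 the highest, 1568406. IgG libraries had totals from 5981 to 17503. The arsenite and PBS libraries carry one library-set name, and the tunicamycin and DMSO libraries carry others, so set and condition cannot be told apart across those 2 arms. A count reflects both the amount of an RNA and its crosslinking to IGF2BP3, and these cannot be told apart here. The epithelial markers KRT8 and CLDN4 held crosslinked clusters in 14 and 7 of the 15 anti-IGF2BP3 libraries. PTPRC, a leukocyte marker, and ALB, a hepatocyte marker, held 0, and the other markers were not analysed here.

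Over the 15 libraries BMP4 had 770 counts, ID1 648, ID2 1454, ID3 157, SMAD6 23, SMAD7 37 and SKIL 366. Their identifiers in the table, without version, were ENSG00000125378 for BMP4, ENSG00000125968 for ID1, ENSG00000115738 for ID2, ENSG00000117318 for ID3, ENSG00000137834 for SMAD6, ENSG00000101665 for SMAD7 and ENSG00000136603 for SKIL. SMAD6 and SMAD7 did not pass the filter on low counts in any comparison, and ID3 did not pass it for arsenite against PBS. Their fits without the filter are given as such. All 7 are accounted for below by their values.

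The deposited clusters, which are stretches of overlapping reads with T-to-C conversions, show where on these RNAs the crosslinked reads lay. In RefSeq on GRCh38.p14, BMP4 lies at chr14:53949736-53956891 on the minus strand, ID1 at chr20:31605289-31606510 on the plus strand, ID2 at chr2:8682056-8684461 on the plus strand and ID3 at chr1:23557926-23559501 on the minus strand. SMAD6 lies at chr15:66702236-66782849 on the plus strand, SMAD7 at chr18:48919853-48950965 on the minus strand and SKIL at chr3:170357715-170396849 on the plus strand. An uncharacterised locus, LOC124903317, overlaps BMP4 and another, LOC124903876, overlaps ID3. Their strands were not used here, and reads of these overlapping loci may be shared. Exon and UTR borders were not used here.

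Below are 30-base windows, 5′ to 3′ on the RNA strand, for the regions on which the results turn. Each is the window of its region with the highest library coverage, summed over its bases. Another window of the same region may be spanned in full by more clusters. For each gene the region with clusters in the most libraries is shown, together with the BMP4 regions without a cluster at TM 4 h that several libraries shared, the ID1 region with clusters in all arsenite libraries, and the ID2 region with the most reads. These additional regions were chosen after their values were seen. Capitals mark the letters CATT, CATA and CATC, which spell the CAUH element known for IGF2BP proteins with T for U, and ACAC and GGAC, searched on the strand of the cluster only. Matches of different strings may share bases, and in BMP4 region 1 CATC and ACAC abut.
BMP4 region 1, chr14:53950663-53950692, minus strand: agtggtgcctgggcacctCATCACACgact
BMP4 region 4, chr14:53950168-53950197, minus strand: tgcCATTgtgcagaccctggtcaattctgt
BMP4 region 5, chr14:53949909-53949938, minus strand: ctACACagactgcttccttatagctGGACt
BMP4 region 6, chr14:53949794-53949823, minus strand: acCATAttgatCATAtattttgacaaaata
ID1 region 1, chr20:31605307-31605336, plus strand: ttcCATTttccgtatctgcttcgggcttcc
ID1 region 3, chr20:31605665-31605694, plus strand: agattctccagcacgtCATCgactaCATCa
ID2 region 4, chr2:8683723-8683752, plus strand: aacaacaaattcacggaatcttttaagtgc
ID2 region 5, chr2:8683839-8683868, plus strand: atgatCATCttcccagggtgttctcttact
ID3 region 2, chr1:23557996-23558025, minus strand: tttttacaggaaggtgactttctgtaacaa
SKIL region 2, chr3:170392846-170392875, plus strand: tctccccttttctCATTaACACaatttttc

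Of the 21 regions on these genes, 11 held at least 1 of the 5 letter strings in this window. Taken cluster by cluster with windows of the same length, 50.8% of the 124 windows on these genes held 1 of the 5, beside 55.6% of all 364271 windows in the 15 libraries. CATT was in 22.6% of the windows on these genes and 24.2% of all, CATC in 14.5% and 16.5%, ACAC in 12.1% and 11.5%, and GGAC in 8.87% and 6.55%. CATA was in 2.42% of the windows on these genes and 12.8% of all. T made up 31.1% of the bases in these windows and 31.8% in all windows. Clusters of different libraries on 1 region share their letters, so these shares describe 21 stretches and not 124 separate ones.

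BMP4, the ligand, was lower after 4 h of tunicamycin than in its vehicle. In counts per 1000000 (CPM), scaled with TMM factors over the 15 libraries, BMP4 was at 60.4, 76.8 and 97.4 in DMSO and at 36.0, 22.8 and 39.3 after TM for 4 h. It was at 124.9, 86.6 and 89.2 after TM for 1 h. It was at 121.9, 151 and 68.8 in PBS and at 93.9, 77.0 and 116 in arsenite. The 3 TM 4 h libraries were below each of the other 12, and the other 4 groups overlapped each other. The means were 113.9 ± 41.7 in PBS, 100.2 ± 21.4 after TM for 1 h, 95.6 ± 19.5 in arsenite, 78.2 ± 18.6 in DMSO and 32.7 ± 8.72 after TM for 4 h (SD, n = 3 each). In that order, neighbouring groups overlapped except DMSO and TM 4 h.

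**Figure D1:**
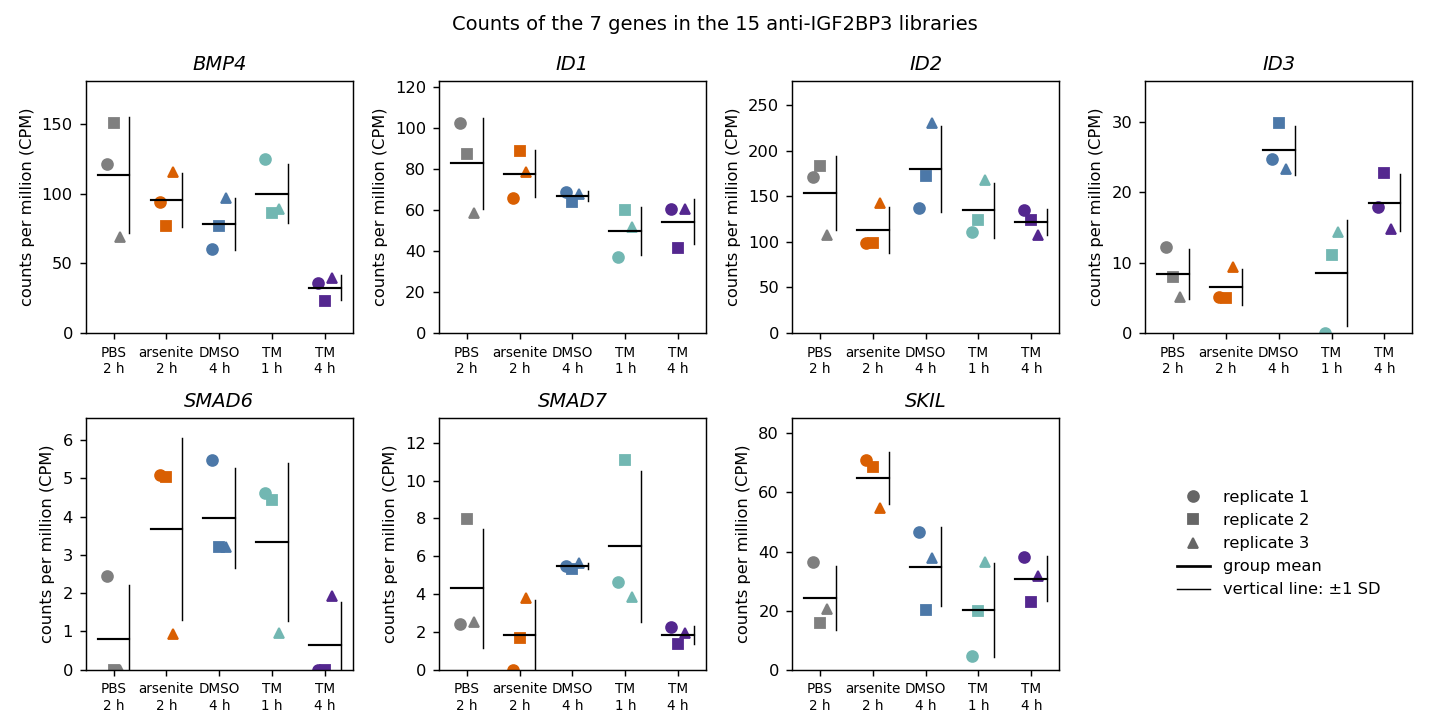
Level of each of the 7 genes in CPM (y axis, linear from 0, a different range in each panel) in the 15 anti-IGF2BP3 libraries by condition (x axis); a point is 1 library, its shape the replicate, the horizontal line the group mean and the vertical line ±1 SD. BMP4 lies between 22.8 and 39.3 in the TM 4 h libraries and at 60.4 or above in the other 12, and SKIL lies at 54.7 or above in the arsenite libraries and at 46.6 or below elsewhere.

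As a description, BMP4 was lower by 1.29 on the log2 scale at TM 4 h than in DMSO (log2 fold change -1.29, SE 0.20), which is 2.45-fold. Of the 8343 genes in that comparison, 9 had a lower log2 fold change. The value ran from -1.57 to -1.08 over the 16 alternative settings, and with replicates 1 and 2 alone, which share a library set, it was -1.35. Against TM 1 h, the log2 fold change was -1.47 (SE 0.21), and 2 of 8343 genes had a lower one. The TM 4 h libraries enter both comparisons, so the second adds no separate evidence.

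The measures that did not enter the choice of BMP4 showed no change past the threshold, and of these the TM 1 h comparison shares its DMSO libraries with the one that chose BMP4. After 1 h of tunicamycin, BMP4 had a log2 fold change of 0.18 against DMSO (SE 0.18, adjusted p = 0.83, edgeR), with an interval of ±2 SE from -0.19 to 0.54. Under arsenite against PBS, the log2 fold change was -0.06 (SE 0.20, adjusted p = 0.84, edgeR), with an interval from -0.47 to 0.34. The sign of the arsenite value turned in 3 of 11 alternative settings. The groups overlapped in each of these comparisons. A fall of the size described at TM 4 h lies outside both intervals. That size led the choice of BMP4, so no difference between conditions is read from this.

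BMP4 clusters lay near the 3′ end of the locus. They numbered 35 with 415 reads, in 12 of the 15 libraries, and formed 6 regions, the first of which began 6184 bases into the 7156-base locus. Region 4, at chr14:53950105-53950292, had a cluster in 12 libraries and 221 reads. It was called in 2 PBS, 3 arsenite, 2 DMSO, 3 TM 1 h and 2 TM 4 h libraries. Its window, printed above with a CATT, was spanned in full in 10 of those 12 libraries.

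Regions 5 and 6, nearest the 3′ end, had no cluster in any TM 4 h library. Region 5 had 84 reads in PBS replicate 1, arsenite replicate 3, DMSO replicates 2 and 3 and TM 1 h replicate 3. Region 6, whose window holds CATA at 2 places, had 35 reads in replicate 3 of arsenite, DMSO and TM 1 h. Region 1 had 22 reads in those same 3 libraries. Such calls depend on depth, and 1384774 reads lay in clusters of TM 4 h replicate 3, more than in any other library. That library had clusters in BMP4 regions 2, 3 and 4. Such calls also depend on the reads of the gene itself. Regions 1 and 6 were called only in the 3 libraries with the highest BMP4 gene counts, above every TM 4 h library. Region 5 was also called in PBS replicate 1, whose BMP4 count was below that of TM 4 h replicate 3. The missing calls are therefore not separate from the low BMP4 count that led the choice. A loss of single regions was not tested.

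Per 1000000 cluster reads of a library, the reads in BMP4 clusters were 14.9, 0 and 25.3 in the TM 4 h libraries and 0, 62.5 and 92.6 in DMSO. They were 78.2, 39.1 and 74.5 after TM for 1 h, 94.1, 117.1 and 0 in PBS, and 41.3, 43.8 and 109.8 in arsenite. A library at 0 had no called cluster, and DMSO replicate 1 and PBS replicate 3 were such libraries although their gene counts for BMP4 were 22 and 27. The TM 4 h and DMSO libraries therefore overlapped in this measure. The share of T positions read as converted in BMP4 clusters was 10.996% over all libraries and from 9.98% in TM 1 h to 11.6% in TM 4 h. Over all clusters of a library this share was between 7.58% and 8.81%.

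**Figure D2:**
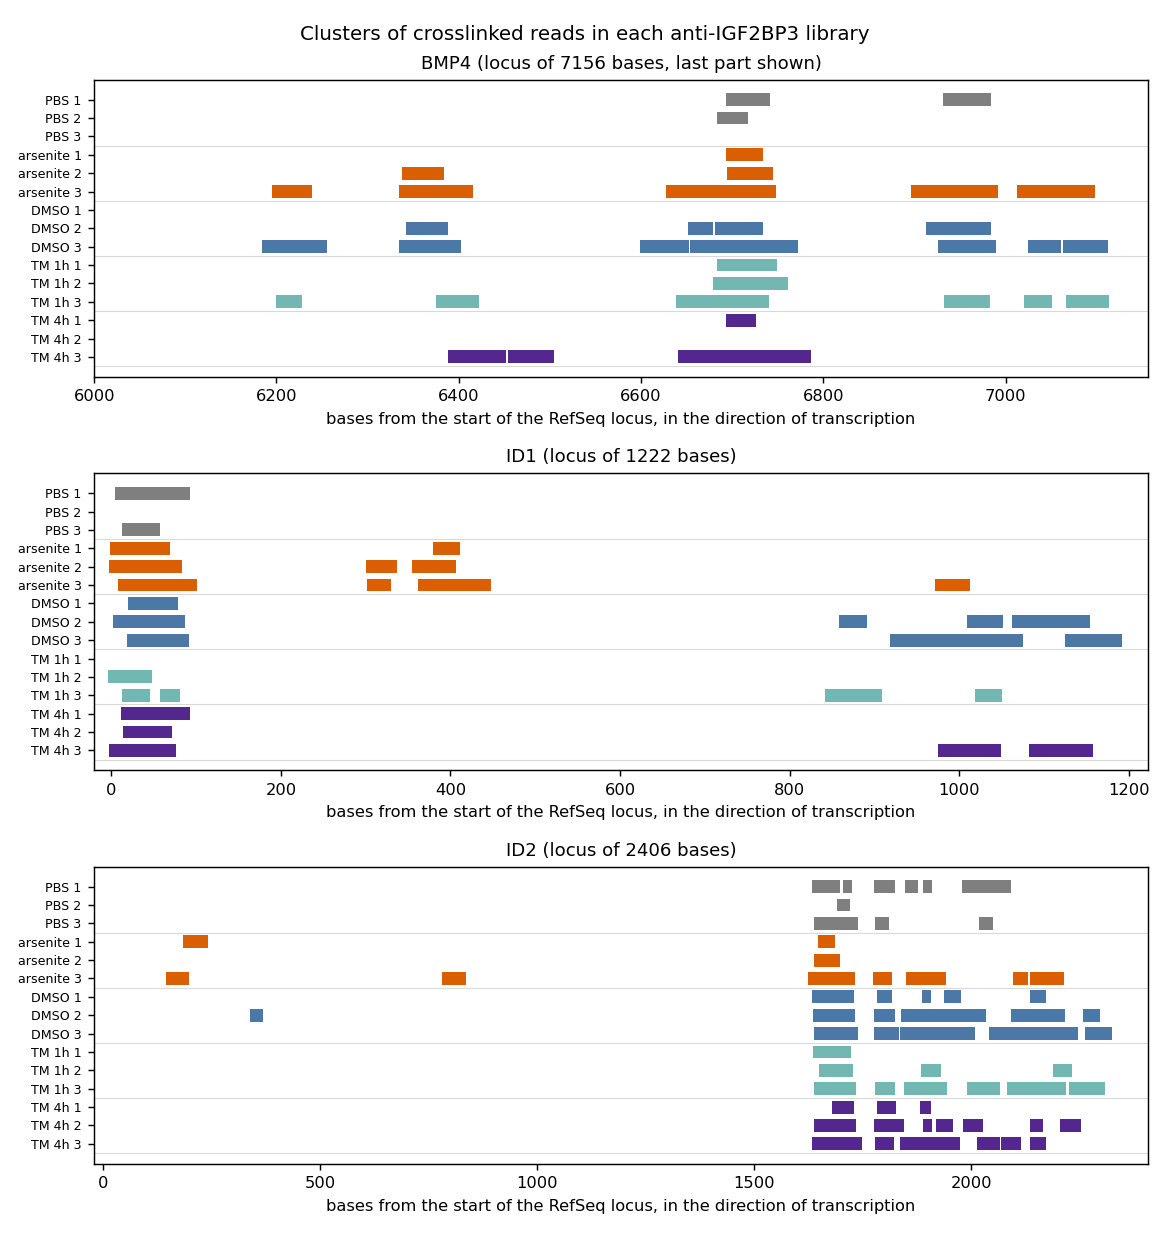
Called clusters (bars) on BMP4, ID1 and ID2 in each of the 15 anti-IGF2BP3 libraries (rows), by distance in bases from the start of the RefSeq locus in the direction of transcription (x axis, linear; for BMP4 the last part of the locus). BMP4 region 4, from base 6599, has bars in 12 libraries, ID1 has bars at its start in 13 libraries, and the bars between bases 301 and 448 of ID1 are in arsenite libraries.

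Over the 15 libraries, the genes whose log2 CPM followed BMP4 most closely were, among the 3337 genes that averaged at least 50 counts, ENSG00000075618_18 with a Pearson r of 0.891 and ENSG00000164484_12 with 0.878. These correlations are descriptions over libraries that share treatment and depth. The deposited table does not pair these identifiers with names. ENSG00000075618_18 had a mean of 161.8 CPM at TM 4 h and of 218 to 233.8 CPM in the other 4 groups, and ENSG00000164484_12 had 82.3 CPM at TM 4 h and 114.5 to 174.2 CPM elsewhere. ID2 stood at rank 458 with r = 0.339.

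ID1, which encodes an inhibitor of helix-loop-helix factors, was at 68.6, 64.0 and 67.6 CPM in DMSO. It was at 37.0, 59.9 and 51.8 CPM after TM for 1 h and at 60.7, 41.6 and 60.5 CPM after TM for 4 h. It was at 102.4, 87.4 and 58.6 CPM in PBS and at 66.0, 88.8 and 78.3 CPM in arsenite. Each TM library was below each DMSO library, while the PBS and arsenite libraries overlapped. By mean level the order was PBS at 82.8 ± 22.3, arsenite at 77.7 ± 11.4, DMSO at 66.7 ± 2.42, TM 4 h at 54.3 ± 10.99 and TM 1 h at 49.6 ± 11.6 CPM (SD, n = 3 each), and neighbours overlapped except DMSO and TM 4 h.

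No test of ID1 passed the threshold. At TM 1 h against DMSO the log2 fold change was -0.36 (SE 0.21, adjusted p = 0.63, edgeR). At TM 4 h against DMSO it was -0.28 (SE 0.19), given as a description. TM 4 h against TM 1 h gave 0.08 (SE 0.21, adjusted p = 0.87, edgeR) and arsenite against PBS gave -0.05 (SE 0.22, adjusted p = 0.88, edgeR). These last 2 values turned sign when some libraries were left out.

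ID1 clusters numbered 29 with 394 reads, in 13 libraries. Region 1, at chr20:31605285-31605389, lay at the 5′ end of the locus, had a cluster in the same 13 libraries and held 254 of the reads. Region 3, at chr20:31605644-31605736, had clusters in all 3 arsenite libraries with 19 reads, and region 2 in arsenite replicates 2 and 3 with 15 reads. No cluster was called in either region in the other 12 libraries, of which 3 had more reads in clusters than any arsenite library. The number of reads in clusters ran from 218140 to 828783 in arsenite libraries and from 42699 to 244475 in PBS libraries, and PBS replicates 1 and 3 had more than arsenite replicate 1. Each cluster in these regions held only 4 to 10 reads. Whether these calls depend on depth or on arsenite was not tested. The window of region 3 holds CATC at 2 places.

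Toward the 3′ end of ID1, region 5, at chr20:31606207-31606480, had 92 reads, of which 57 were in DMSO replicates 2 and 3, 10 in TM 1 h replicate 3, 22 in TM 4 h replicate 3 and 3 in arsenite replicate 3. The 3 PBS libraries had no cluster there. Region 4 had 14 reads in DMSO replicate 2 and TM 1 h replicate 3. On the same scale, per 1000000 cluster reads, the reads in ID1 clusters were 48.8, 62.5 and 57.8 in DMSO, 0, 14.2 and 34.9 after TM for 1 h and 33.5, 27.3 and 41.9 after TM for 4 h. As in the gene counts, each TM library was below each DMSO library. The clusters and the counts come from the same reads.

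ID2, another inhibitor of helix-loop-helix factors, was at 137.2, 171.7 and 230.2 CPM in DMSO. It was at 111.1, 124.3 and 167.8 CPM after TM for 1 h and at 134.9, 123.4 and 106.9 CPM after TM for 4 h. It was at 170.6, 182.8 and 107 CPM in PBS and at 99.0, 98.8 and 142.4 CPM in arsenite. DMSO and TM 4 h did not overlap, with the nearest libraries at 137.2 and 134.9 CPM, and the other comparisons overlapped. By mean level the order was DMSO at 179.7 ± 47.0, PBS at 153.5 ± 40.7, TM 1 h at 134.4 ± 29.7, TM 4 h at 121.7 ± 14.04 and arsenite at 113.4 ± 25.1 CPM (SD, n = 3 each), and all neighbours overlapped.

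As a description, ID2 at TM 4 h had a log2 fold change of -0.70 against DMSO (SE 0.14), and 96 of 8343 genes had a lower one. This value rested on DMSO replicate 3, the highest library. Without it the log2 fold change was -0.45, and with replicates 1 and 2 alone it was -0.32. At TM 1 h against DMSO the log2 fold change was -0.39 (SE 0.15, adjusted p = 0.32, edgeR), with an interval of ±2 SE from -0.68 to -0.09.

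Under arsenite ID2 had a log2 fold change of -0.29 against PBS (SE 0.18, adjusted p = 0.22, edgeR). It passed the threshold when PBS replicate 3 was left out, at -0.53 (adjusted p = 0.047, edgeR), or arsenite replicate 3, at -0.55 (adjusted p = 0.046, edgeR). Over the 11 alternatives its adjusted p ran from 0.046 to 0.83. TM 4 h against TM 1 h gave -0.31 (SE 0.16, adjusted p = 0.22, edgeR).

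ID2 had the most clusters of the 7 genes, 63 with 1123 reads, and clusters in all 15 libraries. Region 4, at chr2:8683679-8683803, had a cluster in every library and 502 reads, and its window, spanned in 12 libraries, held none of the 5 letter strings. Region 5, at chr2:8683830-8684378, began shortly after it and had 598 reads in 11 libraries. Both lay in the downstream part of the locus. Region 1, at chr2:8682201-8682296 near the 5′ end, had 13 reads in arsenite replicates 1 and 3 and no cluster elsewhere.

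Per 1000000 cluster reads, ID2 clusters held 180.5, 194.1 and 245.7 in DMSO, 68.4, 120.7 and 182.8 after TM for 1 h and 96.8, 134.4 and 102.5 after TM for 4 h. They were 225, 93.7 and 91.5 in PBS and 77.9, 43.8 and 142.4 in arsenite. The TM 4 h libraries were below the DMSO libraries, and the other pairs of treatment and control overlapped. T-to-C conversion was 8.22% in ID2 clusters and 7.36% in ID1 clusters.

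ID3, the remaining ID gene that was followed, was at 24.7, 29.9 and 23.3 CPM in DMSO. It was at 0, 11.1 and 14.4 CPM after TM for 1 h, from 0, 5 and 15 counts, and at 18.0, 22.8 and 14.8 CPM after TM for 4 h. It was at 12.2, 7.95 and 5.10 CPM in PBS and at 5.08, 5.02 and 9.43 CPM in arsenite, from 10 counts or fewer in each library. Without the filter on low counts, the log2 fold change under arsenite against PBS was -0.21 (SE 0.72, adjusted p = 0.90, edgeR). The order was DMSO, TM 4 h and TM 1 h with no overlap between these neighbours, although TM 1 h and TM 4 h came as near as 14.4 and 14.8 CPM. TM 1 h, PBS and arsenite overlapped. The PBS mean of 8.41 ± 3.57 and the DMSO mean of 26.0 ± 3.45 CPM (SD, n = 3 each) came from different library sets and were not tested against each other.

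At TM 1 h against DMSO, ID3 had a log2 fold change of -1.17 (SE 0.39), and 26 of 8343 genes had a lower one. It did not pass the threshold (adjusted p = 0.21, unadjusted p = 0.0040, edgeR), and the log2 fold change ran from -1.89 to -0.96 over 16 alternatives with adjusted p from 0.20 to 0.96. At TM 4 h against DMSO the log2 fold change was -0.55 (SE 0.32), as a description. TM 4 h against TM 1 h gave 0.61 (SE 0.42, adjusted p = 0.39, edgeR). ID3 clusters numbered 3 with 16 reads, in DMSO replicates 2 and 3 and TM 4 h replicate 3. They formed 2 regions, and the window of region 2 is printed above.

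SMAD6 and SMAD7, the inhibitory SMADs, were near the limit of counting. SMAD6 had 1, 0 and 0 counts in PBS, 2, 3 and 1 in arsenite, 2, 3 and 4 in DMSO, 1, 2 and 1 after TM for 1 h and 0, 0 and 3 after TM for 4 h. SMAD7 had 1, 1 and 1 counts in PBS, 0, 1 and 4 in arsenite, 2, 5 and 7 in DMSO, 1, 5 and 4 after TM for 1 h and 1, 1 and 3 after TM for 4 h. No cluster was called on either gene in any library.

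In CPM, SMAD7 was at 5.49, 5.33 and 5.63 in DMSO, at 4.63, 11.1 and 3.84 after TM for 1 h and at 2.25, 1.34 and 1.93 after TM for 4 h. Its TM 4 h libraries were below the DMSO and the TM 1 h libraries, from at most 3 counts each. Without the filter on low counts, SMAD7 at TM 4 h had a log2 fold change of -1.55 against DMSO (SE 0.77), as a description, and of -1.65 against TM 1 h (SE 0.83, adjusted p = 0.37, edgeR), which did not pass. SMAD6 was at 3.20 CPM or above in DMSO and at 1.93 or below at TM 4 h, where 2 libraries were at 0. Without the filter, its log2 fold change against DMSO was -1.64 at TM 4 h (SE 0.97), as a description, and -0.56 at TM 1 h (SE 0.95). SMAD6 was at -1.08 for TM 4 h against TM 1 h (SE 1.16) and at 1.34 for arsenite against PBS (SE 1.46). SMAD7 was at 0.10 for TM 1 h against DMSO (SE 0.69) and at -0.37 for arsenite against PBS (SE 1.19). In the comparisons of TM 1 h with DMSO, TM 4 h with TM 1 h and arsenite with PBS, the unfiltered fits called neither gene.

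SKIL, the corepressor gene, rose under arsenite. It was at 71.1, 68.7 and 54.7 CPM in arsenite and at 36.6, 15.9 and 20.4 CPM in PBS. Arsenite libraries were above each of the other 12. The log2 fold change was 1.22 (SE 0.32, adjusted p = 0.0011, edgeR), or 2.32-fold, and 6410 of the 6642 genes tested had a lower one. It passed the threshold in all 11 alternatives, with values from 0.99 to 1.69 and adjusted p from 0.0010 to 0.037.

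SKIL was at 46.6, 20.3 and 37.8 CPM in DMSO, at 4.63, 20.0 and 36.4 CPM after TM for 1 h and at 38.2, 22.8 and 31.6 CPM after TM for 4 h. These 3 groups overlapped. The log2 fold changes were -0.26 at TM 1 h (SE 0.31, adjusted p = 0.86, edgeR) and -0.12 at TM 4 h (SE 0.28, a description), and the second turned sign in 3 of 15 alternatives. TM 4 h against TM 1 h gave 0.14 (SE 0.31, adjusted p = 0.84, edgeR). By mean level the order was arsenite at 64.8 ± 8.84, DMSO at 34.9 ± 13.4, TM 4 h at 30.9 ± 7.73, PBS at 24.3 ± 10.9 and TM 1 h at 20.4 ± 15.9 CPM (SD, n = 3 each), and arsenite did not overlap its neighbour.

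SKIL clusters numbered 5 with 34 reads. Region 2, at chr3:170392825-170392928, had 21 reads in arsenite replicates 2 and 3 and TM 4 h replicate 2. Its window holds CATT and ACAC, and no G. The other regions, 1 and 3, had a single cluster each, in TM 4 h replicate 3 and arsenite replicate 3. All lay in the last part of the 39135-base locus, from base 35048 on. No cluster was called in PBS, DMSO or TM 1 h libraries.

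**Figure D3:**
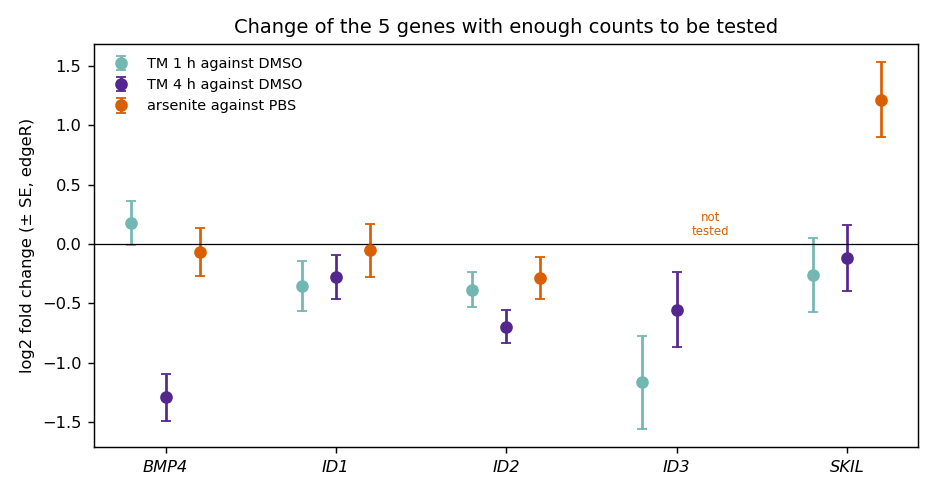
Log2 fold change (y axis, edgeR, with ±1 SE as bars) of the 5 genes that passed the filter on low counts in a comparison (x axis), for TM 1 h and TM 4 h against DMSO and arsenite against PBS; ID3 did not pass it under arsenite, and BMP4 at TM 4 h was chosen on its value. BMP4 at TM 4 h is at -1.29 and SKIL under arsenite at 1.22, and at TM 4 h all 5 points are below 0, of which the point of SKIL turned sign in 3 of 15 alternatives.

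Counted over the genes, 0 of 5 tested members were called at TM 1 h, where 0.551% of the 8343 genes were called with edgeR at an adjusted p under 0.05. At an unadjusted p under 0.05 that comparison held 806 genes, and DESeq2 called 6 genes and none of the members. The share of all genes called dropped to 13 genes without DMSO replicate 3, 17 without TM 1 h replicate 2 and 23 without TM 1 h replicate 1. At TM 4 h, 2 of 5 members were called, BMP4 and ID2, where 5.11% of all genes were, and nothing is read from this count because the choice of members used that comparison. ID2 was no longer called without DMSO replicate 3, when 178 genes in all were called in place of 426, and without TM 4 h replicate 3 the total was 247. Among the 5 members that passed the filter, groups did not overlap for 2 at TM 1 h, ID1 and ID3, beside 15.3% of all genes, and for 4 at TM 4 h, beside 20.6%. The TM 4 h count includes BMP4, which was chosen for its low value there, so nothing is read from that count either.

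Between TM 4 h and TM 1 h, 1 of 5 members was called, BMP4, where 11.6% of all genes were. Without TM 1 h replicate 3 the number of all genes called there went from 967 to 523. Of these 5, BMP4 and ID3 did not overlap between those groups, beside 26.8% of all genes. BMP4 was chosen on its TM 4 h value, so nothing is read from its call or its lack of overlap here. Under arsenite 1 of 4 members was called, SKIL, where 34.8% of the 6642 genes were called, and SKIL was also the 1 member whose groups did not overlap, beside 43.6% of all genes. A share of 1 in 4 is no more than that background.

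The median log2 fold change of the members tested was -0.36 at TM 1 h, -0.55 at TM 4 h, 0.08 between TM 4 h and TM 1 h, and -0.06 under arsenite, while the median of all genes was 0.00 at TM 1 h and TM 4 h, 0.01 between them and 0.00 under arsenite. At TM 1 h 4 of the 5 tested members had a value below 0, and at TM 4 h all 5 had. Both comparisons share the DMSO libraries. The TM 4 h median and count include BMP4, which was chosen for its low value there, so they are descriptions and nothing is read from them. The members that passed the filter on low counts are not all 7.

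The change under arsenite was set against the change at TM 4 h in a fit of 12 libraries, in which 18.3% of 7796 genes differed. For SKIL the difference was 1.33 on the log2 scale (SE 0.42, adjusted p = 0.018, edgeR), higher under arsenite. It lost its call with DESeq2 at 1.41 (adjusted p = 0.056), without PBS replicate 3 at 1.13 (adjusted p = 0.10, edgeR) and without DMSO replicate 3 at 1.12 (adjusted p = 0.095, edgeR). For BMP4 the difference was 1.22 (SE 0.30), as a description, since the TM 4 h value chose the gene. ID1 at 0.22 (SE 0.29, adjusted p = 0.66, edgeR), ID2 at 0.41 (SE 0.24, adjusted p = 0.24, edgeR) and ID3 at 0.31 (SE 0.74, adjusted p = 0.82, edgeR) did not pass. BMP4 and SKIL were the 2 of 5 members called in this fit. Because BMP4 enters that count through its choice, nothing is read from the count.

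The IgG libraries were too shallow to set a background for single genes. Summed over 5 IgG libraries with 52256 counts, BMP4 had 5 counts, which is 95.7 per 1000000 counts with an exact 95% interval from 31.1 to 223, beside 75.0 per 1000000 in the 15 anti-IGF2BP3 libraries. ID2 had 5 counts, at 95.7 per 1000000 (31.1 to 223) beside 141.6. ID1 and SKIL had 3 counts each, at 57.4 per 1000000 (11.8 to 168) beside 63.1 and 35.6. ID3 had 1 count, at 19.1 per 1000000 (0.484 to 107) beside 15.3, and SMAD7 had 2, at 38.3 per 1000000 (4.64 to 138) beside 3.60.

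SMAD6 had 0 counts in IgG, with an upper bound of 70.6 per 1000000, beside 2.24. For 6 of the 7 genes the antibody value lay within the IgG interval, and SMAD7 was below it. Enrichment over IgG was therefore not detectable from gene counts for any of the 7 at this depth. No cluster was called on any of the 7 loci in an IgG library, which carries little weight at the same low depth. The intervals cover counting error only.

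**Figure D4:**
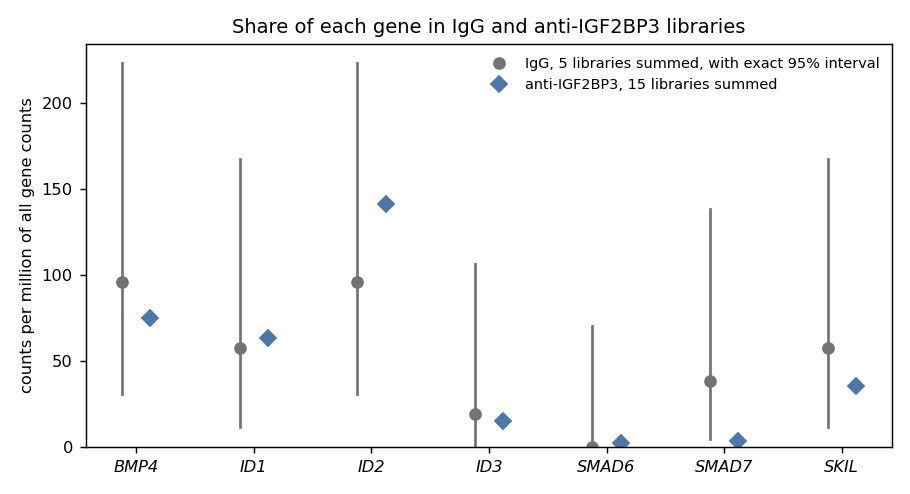
Counts per 1000000 gene counts, without TMM scaling (y axis, linear from 0) for each gene (x axis), in the 5 IgG libraries summed (grey circles, with exact 95% binomial intervals as lines) and in the 15 anti-IGF2BP3 libraries summed (blue diamonds). The diamonds lie within the lines for all genes but SMAD7, whose diamond at 3.60 is below its line, which starts at 4.64.

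Other genes of the pathway were read from the cluster lists by locus, since the deposited counts carry no names. Of 46 genes with a locus and strand, 31 held a cluster in at least 1 anti-IGF2BP3 library, or 67.4%, beside 44.3% of 15843 protein-coding loci. In 8 libraries or more, 20 of the 46 held a cluster, or 43.5%, beside 24.0% of all loci. A cluster anywhere along a locus counted, with exons and introns not separated. The shares were not matched for locus length or RNA amount, so a preference for this pathway was not tested. A further 9 genes of the list were not analysed here. No member of the list held a cluster in an IgG library, but those libraries had totals of only 5981 to 17503 gene counts, so this absence carries little weight.

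By role, clusters were found on 2 of 6 ligand genes, 3 of 7 antagonist genes, 10 of 12 receptor genes, 5 of 6 SMAD genes, 7 of 7 regulator genes and 4 of 8 other targets and partners. SMAD2 and SMAD5, which carry the TGF-beta and BMP signals respectively, held clusters in all 15 libraries, and so did TGIF1, a SMAD corepressor gene, PPM1A, a SMAD phosphatase gene, and TCF3, a helix-loop-helix partner of ID proteins. The BMP receptor gene BMPR1A held clusters in 12 libraries and BMPR2 in 7, while ID4, HES1 and BAMBI held 0.

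RNF111, which encodes Arkadia, a ubiquitin ligase that targets SnoN and SMAD7, had 447.9 ± 36.8 reads in clusters per 1000000 cluster reads in arsenite and 47.3 ± 49.2 in PBS (SD, n = 3 each). TCF12, another helix-loop-helix partner of ID proteins, had 477.4 ± 36.7 in arsenite and 160.2 ± 138.9 in PBS (SD, n = 3 each). MSX1, a homeobox target of BMP signalling, had 114.6 in DMSO and 53.0 at TM 4 h (means, n = 3 each). These 3 genes were singled out after their values were seen, and their differences were not tested. Cluster calls also depend on depth, and PBS replicate 2 had fewer reads in clusters than any arsenite library.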

How the data were processed

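Per the submitters' processing notes, bcl2fastq 2.20.0.422, UMI-tools 1.1.1, Trimmomatic 0.30, Bowtie 0.12.7 and featureCounts 2.0.1 were used, on GRCh38.p13, also given as hg38. The authors deposited raw whole-number counts per gene for 20 libraries and a list of clusters per library, called library by library, with at least 2 reads and 2 conversion locations in each cluster. The labels state more than one RNase concentration without saying which library received which, and 0 count columns were left unmapped. In the arsenite set the IgG cluster lists have file names that are swapped against their samples, and the sample records were used.

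The tests on counts used edgeR 4.0.16 (R 4.3.3, filterByExpr, TMM, two-sided quasi-likelihood test, Benjamini-Hochberg over all genes tested, threshold 0.05), in fits of 9 tunicamycin and DMSO libraries, 6 arsenite and PBS libraries, or 12 for the difference. DESeq2 1.42.0 was an alternative. Others were library totals for TMM, no filter, robust moderation, blocks, and libraries left out. Clusters overlapping a locus on its strand by at least 1 base were merged with Python 3.11.15. Of 519 clusters inside RefSeq promoter windows, 519 had identical letters there.

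All 7 members are named. The genes like BMP4 were those with the highest Pearson correlation of log2 CPM (prior count 2, mean count at least 50). The rule for the pathway list used gene counts and could not be applied, so those genes were read from the clusters. Members and lists were chosen with earlier results of these data known, and the members' symbols came with the list, since the count table holds identifiers only. In tests on simulated data with 200 genes changed 2-fold, 67.5% were recovered for TM 1 h against DMSO (8118 genes), 80% for TM 4 h (8156), 67% between TM times (8156), 78% for arsenite (6432) and 54.5% for the difference (7602). With no gene changed, 0 genes were called. The simulation gave every gene the same dispersion and averaged over genes of all count levels. These rates therefore do not describe single members, least of all those with few counts.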

Additional observations from a re-analysis of the deposited data

Results flagged for a closer look

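The change of SKIL differed between the stresses. Its log2 fold change was higher under arsenite than at TM 4 h by 1.33 (SE 0.42, adjusted p = 0.018, edgeR, over all 7796 genes tested), with 3 of 3 arsenite libraries above 3 of 3 PBS libraries and the TM 4 h libraries overlapping DMSO. Over 17 alternatives the adjusted p ran from 0.0038 to 0.10, and the call was lost with DESeq2, without PBS replicate 3 and without DMSO replicate 3. The change of BMP4 differed in the same fit, by 1.22 on the log2 scale, and BMP4 was chosen on its TM 4 h value, so this is a description. The 2 stresses had different controls and library sets, so stress and set cannot be told apart.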

How the results depend on the processing

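Low counts limit ID3, SMAD6 and SMAD7, the IgG libraries give no usable background for these genes, and PBS replicate 2 is the shallowest library. DESeq2 called fewer genes than edgeR: 6 in place of 46 at TM 1 h, 151 in place of 426 at TM 4 h, 502 in place of 967 between the TM times, 1233 in place of 2310 under arsenite and 854 in place of 1427 for the difference, where it called 1 member in place of 2. With replicates 1 and 2 alone, which means fewer samples, 16, 129 and 488 genes were called in the tunicamycin comparisons, and 1 member at TM 4 h. Leaving out 1 library gave 13 to 51 genes at TM 1 h, 178 to 447 at TM 4 h, 523 to 1022 between the TM times, 1714 to 2392 under arsenite and 1052 to 1377 for the difference. Members called then numbered 1 to 2 at TM 4 h, under arsenite and for the difference. Leaving out 1 replicate number in all conditions together gave 18 to 22 cluster regions. The 18 were without replicate 3, where BMP4 had 4 regions in place of 6.

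Signs turned for values near 0 and not called. With replicates 1 and 2 alone, SKIL was at 0.0125 for TM 4 h against DMSO, and ID1 was at -0.0756 and ID2 at 0.10 for TM 4 h against TM 1 h. Leaving out 1 library gave -0.41 to 0.0875 for SKIL at TM 4 h, and for TM 4 h against TM 1 h -0.079 to 0.21 for ID1 and -0.048 to 1.01 for SKIL. Under arsenite it gave -0.37 to 0.14 for BMP4 and -0.31 to 0.26 for ID1. For the difference between stresses it gave -0.0196 to 0.55 for ID1 and -0.19 to 0.89 for ID3. Apart from the fewer samples, the causes were not tested.

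No pairing by replicate number was seen: correlations between same-numbered libraries, as deviations from group means, were -0.04 to 0.02 over 12 pairs. Low counts could hide a pairing in this check. In DMSO, TM 1 h and TM 4 h, replicate 3 carries another library-set name than replicates 1 and 2. With the replicate block, 43, 371, 902, 2111 and 1247 genes were called in the order above, and the calls of the members were the same.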

Other observations

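After the clusters of ID1 and ID2 near the 5′ end in arsenite libraries had been seen, other short protein-coding loci, of 3000 bases or less, were examined for the share of cluster reads in the upstream part of the locus. Over 232 such loci the share was 19.9 ± 1.19% in arsenite and 12.3 ± 2.86% in PBS (SD, n = 3 each), with no overlap. DMSO libraries had 12.3 ± 1.39%, TM 1 h libraries 9.89 ± 3.29% and TM 4 h libraries 17.6 ± 2.83% (SD, n = 3 each). The difference was 7.59 percentage points for arsenite (exact permutation test, two-sided p = 0.1, the smallest that 3 against 3 allows, adjusted 0.15), 5.23 for TM 4 h (exact p = 0.1, adjusted 0.15) and -2.44 for TM 1 h (exact p = 0.3, adjusted 0.3). Leaving out 1 library gave 5.94 to 8.43 points for arsenite and 3.75 to 6.57 for TM 4 h. RNA amount along the locus was not measured. Within arsenite, DMSO, TM 1 h and TM 4 h, libraries with more reads in clusters had a higher share. At TM 1 h it ran from 6.7% to 13.3% and at TM 4 h from 14.9% to 20.5%. PBS replicate 2, the shallowest library, had the lowest PBS share, 9.0%. The part of depth in these differences was not tested. In ID1 itself this share was 100%, 100% and 95.3% in arsenite and 100% in PBS replicates 1 and 3, with no cluster in PBS replicate 2, so it was no higher in arsenite. In ID2 it was 47.1%, 0% and 9.32% in arsenite and 0% in PBS.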
